A study of Rattus norvegicus with 8 samples.

Results

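GABA is the main inhibitory transmitter of the hippocampus, and its receptors fall into 2 classes. GABA-A receptors are chloride channels built from several subunits, in which alpha and beta subunits form the GABA binding sites and the alpha subunit largely sets drug sensitivity and position on the cell. GABA-B receptors are G protein coupled and work as an obligate pair, in which the product of Gabbr1 binds GABA and that of Gabbr2 engages the G protein and carries the pair to the surface. The genes described here are Gabra2, Gabra4 and Gabra5 (alpha subunits), Gabrb1 and Gabrb2 (beta subunits) and both GABA-B genes. They were chosen by name, as all probe sets whose only platform gene symbol is among these 7, which gave 13 of the 31042 probe sets on the array that are not controls.

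Expression was measured on 8 arrays of total RNA from rat hippocampal slice cultures, which are sections of living hippocampus maintained in culture, and each array held 15 cultures from which the CA1 or the CA3 pyramidal field had been dissected. The groups were CA3 lesion (1 array), CA3 control (3 arrays), CA1 lesion (1 array) and CA1 control (3 arrays), all at 7 days. The labels do not say what the lesion was, from when the days were counted, or the strain, age and agents. Nothing in them ties replicates to separate animals, so every p-value here reflects array-to-array spread alone, which may be technical. Values are the authors' scaled linear intensities, and differences are on the log2(intensity + 16) scale, which understates changes of dim probe sets.

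Of the 13 probe sets, 7 passed the brightness filter (mean over the 8 arrays at or above the 40th percentile of all probe sets, an intensity near 311). These were the single probe sets of Gabra2 (1397614_at), Gabra5 (1371057_at) and Gabrb1 (1369904_at), 1 of 2 for Gabrb2 (1377773_at), 1 of 2 for Gabbr2 (1387383_at) and 2 of 5 for Gabbr1 (1388039_a_at and 1375720_at). Gabra4 had 1 probe set (1369905_at), which lay under the filter and was not tested. Brightness is not compared between probe sets, because probes differ in how strongly they bind. Coordinates of the probe sets were not used here.

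The fields and the arrays were checked first. Of 7 measured CA1 pyramidal markers 4 passed the limma threshold (adjusted p of 0.05), all lower in CA3 controls, and of 7 CA3 pyramidal markers 2 passed, Nectin3 and Cpne4, both higher in CA3 controls. In all, 5 of the CA3 pyramidal markers were higher and 2 lower in CA3 controls. Of 4 CA2 markers 1 was higher and 3 were lower in CA3 controls, and 0 passed. No gene of any list was at 0. The lowest intensity of a cell type marker was 14.6 (Kdr, CA1 control 1), and the lowest of any list gene was 10.8 (the receptor subunit Gabra3, CA1 control 1). Gapdh, measured at both ends of its transcript to gauge RNA integrity, had a 3'/5' ratio of 5.23 in the CA3 lesion array, against 3.75 to 3.93 in CA3 controls, and of 4.65 in the CA1 lesion array, against 3.71 to 5.0 in CA1 controls. The same ratio for Actb was 19.8 in the CA3 lesion array, against 15.0 to 21.4 in CA3 controls, and 17.3 in the CA1 lesion array, against 14.5 to 22.2 in CA1 controls, so it lay within the controls. Control 3 of each field stood apart from the other controls in microglia markers. The 12 microglia markers summed to 103860 in the CA3 lesion array, against 6938, 13029 and 85251 in CA3 controls 1 to 3, and to 145820 in the CA1 lesion array, against 7175, 17485 and 102480 in CA1 controls 1 to 3. Summed myelin markers rose in steps instead, at 80802, 276410 and 503340 in CA3 controls 1 to 3 and at 62383, 297520 and 668140 in CA1 controls 1 to 3. The main results are therefore also given without both control 3 arrays, a setting chosen after these values were seen. It drops the controls nearest to the lesion arrays in both lists, and leaving out both control 1 arrays was not tried.

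The promoters of 4 members are shown because their genes carry the patterns below. Gabrb1 and Gabrb2 were the members with the most similar profiles over the 8 arrays, and Gabra5 and Gabbr2 were higher in every CA3 control array than in every CA1 control array. Each line gives the 250 bases before the annotated transcript start, from RefSeq on the GRCr8 assembly, 5′ to 3′ on the gene's own strand. Capitals mark GCGCATGCGC in the first pair of sequences and GGGCGG, read on either strand, in the second pair.
Gabrb1 (chr14:36902894-36903143, minus strand): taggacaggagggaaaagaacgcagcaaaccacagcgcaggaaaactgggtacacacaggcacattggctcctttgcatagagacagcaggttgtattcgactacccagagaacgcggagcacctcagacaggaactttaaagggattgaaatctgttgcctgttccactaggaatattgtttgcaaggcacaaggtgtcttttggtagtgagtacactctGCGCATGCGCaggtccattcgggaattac
Gabrb2 (chr10:27439543-27439792, plus strand): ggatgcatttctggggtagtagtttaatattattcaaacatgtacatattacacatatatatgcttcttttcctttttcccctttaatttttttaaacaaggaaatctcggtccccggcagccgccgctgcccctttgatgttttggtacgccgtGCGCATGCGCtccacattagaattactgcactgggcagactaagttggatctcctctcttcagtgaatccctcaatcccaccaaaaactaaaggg
Gabra5 (chr1:117516607-117516856, minus strand): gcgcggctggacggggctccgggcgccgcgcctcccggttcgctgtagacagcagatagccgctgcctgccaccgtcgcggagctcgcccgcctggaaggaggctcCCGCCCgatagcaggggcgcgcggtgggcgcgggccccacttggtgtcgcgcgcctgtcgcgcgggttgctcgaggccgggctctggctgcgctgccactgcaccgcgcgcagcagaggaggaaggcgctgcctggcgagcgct
Gabbr2 (chr5:66083696-66083945, minus strand): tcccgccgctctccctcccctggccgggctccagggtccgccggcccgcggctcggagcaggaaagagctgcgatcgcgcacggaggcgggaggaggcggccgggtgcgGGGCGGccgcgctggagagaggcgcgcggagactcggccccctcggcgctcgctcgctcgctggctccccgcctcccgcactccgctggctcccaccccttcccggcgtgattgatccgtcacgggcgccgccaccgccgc

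The promoters of the beta subunit genes shared 3 runs of 10 or more bases in the same order. These were TGCGCATGCGC, which begins 30 bases before the start of Gabrb1 and 96 before that of Gabrb2, then GAATTACTGC, 7 and 76 bases before the start, and GACTAAGTTG, which begins 12 bases after the Gabrb1 start and 58 before the Gabrb2 start. The palindrome GCGCATGCGC is the textbook recognition sequence of the transcription factor NRF1. It occurred in 255 of 33469 RefSeq promoters of the same length (0.762%), and among 16 promoters of GABA receptor subunit genes only in those of Gabrb1 and Gabrb2. Over the full 300 bases, GAATTACTGC occurred in 13 promoters (0.0388%) and GACTAAGTTG in 5 (0.0149%). Runs of 10 or more bases were also shared by other member pairs, so they are not particular to the beta subunit genes. Gabrb2 and Gabbr1 shared CGGTCCCCGGC, of 11 bases, and Gabra5 and Gabbr2 shared CGGGCGCCGC and GGCCGGGCTC. The runs of the beta subunit genes and the palindrome within the longest of them were picked after the sequences were read. They describe the letters only and say nothing about binding.

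GGGCGG, the GC box bound by SP1-family factors, was found once in the 250 bases of Gabra5, of Gabbr2 and of Gabra4, at 4 places in Gabbr1, and in 30.5% of all promoters. GC content was 76.4% for Gabra5, 78.8% for Gabbr2, 75.6% for Gabbr1 and 71.6% for Gabra4, against 49.2% for Gabrb1, 43.2% for Gabrb2 and a median of 51.2% over all promoters. The letters TGACGTCA, CACGTG, GCGTGGGCG and TATAAA were in none of the 6 member promoters, searched on both strands, and CCAAT was in that of Gabrb1 (34.0% of all promoters). That CCAAT did not overlap with the marked motif. The promoter table matched 6 of the 7 members, all but Gabra2.

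The members lie in several subunit gene clusters of the rat genome, as ordered in the RefSeq annotation. On chromosome 14, Gabrb1 and Gabra4 are neighbours with 0 protein-coding genes between them, Gabra2 follows after 1 such gene, and Gabra2 is next to Gabrg1. Gabra5 is next to Gabrg3 on chromosome 1, and Gabrb2 is next to Gabra6 on chromosome 10. The GABA-B genes stand apart, Gabbr1 on chromosome 20 and Gabbr2 on chromosome 5.

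In control cultures, Gabra2, Gabra5 and Gabbr2 were higher in all 3 CA3 arrays than in all 3 CA1 arrays, by 1.58 to 2.10-fold, and Gabrb1 was lower in all 3 CA3 arrays, by 1.32-fold. Of the 7 tested member probe sets, 0 passed the limma threshold in this comparison, against 0.526% of all 18625 probe sets tested, and 3 of 7 had an unadjusted p under 0.05, against 8.31% of all. Separated groups in the order CA3 above CA1 were seen for 3 of 7, against 6.06% of all probe sets, and in the order CA3 below CA1 for 1 of 7, against 8.85%. The median difference of the 7 member probe sets was -0.14, beside -0.041 over all probe sets, with 3 higher and 4 lower. Gabbr1 enters this median with both its tested probe sets, each of them lower, so it is not a median over genes.

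Gabra2 encodes an alpha subunit enriched at synapses on the axon initial segment of pyramidal cells. Its intensity was 3825, 4681 and 3156 in CA3 controls 1 to 3, against 2446, 1621.5 and 1513 in CA1 controls 1 to 3. The lowest CA3 control thus exceeded the highest CA1 control. This amounted to 1.07 ± 0.27 log2 units (SE, 3 arrays in each field), or 2.10-fold, at a limma adjusted p of 0.191. Without both control 3 arrays it was 1.08 ± 0.31.

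Gabra5 encodes an alpha subunit abundant in hippocampal pyramidal cells, where it sits largely outside synapses and carries tonic inhibition. Its intensity was 52555, 57328 and 44242 in CA3 controls, against 41842, 28368 and 28723 in CA1 controls. The arrays did not overlap, although CA1 control 1 came close to CA3 control 3. Gabra5 was 0.66 ± 0.19 log2 units higher in CA3 (SE, 3 arrays in each field), or 1.58-fold, at a limma adjusted p of 0.302. The value without both control 3 arrays was 0.67 ± 0.21.

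Gabbr2, the G protein coupling subunit of the GABA-B receptor, had intensities of 30132, 29498 and 25736 in CA3 controls, against 18951, 20968 and 12584 in CA1 controls. All CA3 arrays were above all CA1 arrays. The gap was 0.73 ± 0.20 log2 units (SE, 3 arrays in each field), or 1.66-fold, at a limma adjusted p of 0.265. It was 0.58 ± 0.18 without both control 3 arrays. The other Gabbr2 probe set (1368952_at) was dim, at 139, 491 and 105 in CA3 controls, against 485, 1108.5 and 81.2 in CA1 controls, and its groups overlapped. With the mean of both probe sets the Gabbr2 difference turned to -0.056.

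Gabbr1 encodes the GABA-binding partner of Gabbr2. By its brighter probe set (1388039_a_at) it had intensities of 41404, 38073 and 25786 in CA3 controls, against 47279, 40172 and 33441 in CA1 controls, and the groups overlapped. Its log2 difference between the fields was -0.21 ± 0.21 (SE), with a 95% interval of -0.68 to 0.25 and a limma adjusted p of 0.824. Its other tested probe set (1375720_at) differed by -0.32 ± 0.22 (SE, limma adjusted p = 0.733). That probe set had 19668, 16119 and 17433 in CA3 controls, against 31359, 17993 and 19176 in CA1 controls, so the groups overlapped. Both values rested on single arrays, since without CA3 control 3 the first was -0.0071 and without CA1 control 1 the other was -0.071. With the mean of all 5 probe sets the Gabbr1 difference was -1.17. Whether the field differences of the GABA-B genes differ from each other was not tested.

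The beta subunits, which complete the GABA binding site and are needed for receptor assembly, had fitted differences below 0 between CA3 and CA1 controls. Gabrb1 had intensities of 6873, 6457 and 7179.5 in CA3 controls, against 7850, 12322 and 7541 in CA1 controls, so all CA3 arrays lay below all CA1 arrays by a small margin. In the fit it was -0.40 ± 0.22 (SE, 3 arrays in each field, limma adjusted p = 0.675). CA1 control 2 was well above the other CA1 controls, and without it the value was -0.17. Gabrb2 had intensities of 5358, 6465 and 4746 in CA3 controls, against 5947, 7428 and 4947 in CA1 controls. Its groups overlapped, and the log2 difference was -0.14 ± 0.22 (SE, limma adjusted p = 0.900, 95% interval -0.62 to 0.35). With the mean of both Gabrb2 probe sets it turned to 0.66, and without CA1 control 2 to 0.014.

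Gabra4 encodes an alpha subunit found mainly outside synapses, often together with the delta subunit. Its intensity was 73.1, 205 and 64.9 in CA3 controls, against 541, 282 and 495 in CA1 controls, so the groups did not overlap. Its mean over the 8 arrays lay under the filter. With no filter the log2 difference was -1.91 ± 0.90 (SE, limma adjusted p = 0.694 over 31042 probe sets). Among the 3 dim Gabbr1 probe sets, 1369371_a_at had 45.9, 24.5 and 20.8 in CA3 controls, against 326, 702 and 274 in CA1 controls, which with no filter was a log2 difference of -3.20 ± 0.82 (SE, limma adjusted p = 0.208). The mean of that probe set lay at percentile 10.3 of all probe sets, so the size of this difference cannot be read, and that of Gabra4 lay at percentile 24.9. All 5 Gabbr1 probe sets had fitted differences below 0. The other dim ones had 82.5, 81.0 and 82.2 in CA3 controls, against 463, 84.9 and 629.6 in CA1 controls (1369372_at), and 843, 33.5 and 405 in CA3 controls, against 899, 439 and 91.2 in CA1 controls (1388030_a_at).

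**Figure D1:**
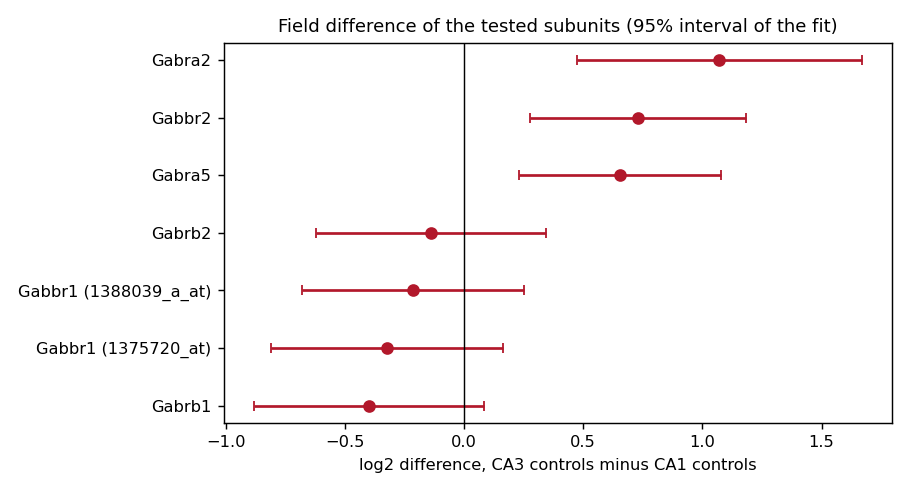
Log2 difference between CA3 controls and CA1 controls (x axis) for the 7 tested member probe sets (y axis), from the limma fit. Points are the estimates and bars the 95% intervals without adjustment for the number of probe sets; Gabra2 stands at 1.07, Gabbr2 at 0.73 and Gabra5 at 0.66, and the other 4 intervals span 0.

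Of 12 pan-neuronal markers 11 were higher in CA3 controls, with a median difference of 0.48, and 1 of 12 passed, the neurofilament gene Nefl. The summed intensity of the list was 409640 to 564560 in CA3 controls, against 283170 to 400350 in CA1 controls. Of 8 tested interneuron markers 6 were lower in CA3, with a median of -0.41 and 0 passed. Of 5 glutamatergic markers 3 were lower in CA3, with a median of -0.29, and 1 passed as lower, Slc17a6. The part of these lists in the subunit differences was not tested, and in dissected tissue fewer cells of a type and less RNA per cell cannot be told apart.

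In the lesion arrays, Gabrb1, Gabrb2 and Gabbr2 were below every control of their own field in both CA3 and CA1, and Gabra2 was below every control in CA3 but not in CA1. Gabra5 was above every control in CA3 and within the controls in CA1. Each lesion group is a single array, assumed in the fit to vary like the controls. In the mean lesion effect over both fields 0 of 7 member probe sets passed in limma, as did 0% of all, and 3 of 7 had an unadjusted p under 0.05, against 6.41% of all. Lower in both fields than all controls were 3 of 7, against 8.03% of all probe sets. The median of the 7 member probe sets was -0.52, beside 0.020 over all probe sets. Of them 6 were lower, both Gabbr1 probe sets included, where 47.8% of all probe sets were lower. Without both control 3 arrays 0 of 7 passed too, although 182 of 18625 probe sets did.

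Gabrb1 had an intensity of 4017 in the CA3 lesion array, against 6873, 6457 and 7179.5 in CA3 controls, and of 5898 in the CA1 lesion array, against 7850, 12322 and 7541 in CA1 controls. Both lesion arrays were thus below all their controls. Its log2 lesion effect was -0.76 ± 0.31 (SE) in CA3 and -0.61 ± 0.31 in CA1, and -0.69 ± 0.22 in the mean (2 lesion arrays against 6 controls, limma adjusted p = 0.771). Without both control 3 arrays the mean effect was -0.73 ± 0.22 (limma adjusted p = 0.170). The CA1 effect was -0.38 without CA1 control 2.

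Gabrb2 had an intensity of 3196 in the CA3 lesion array, against 5358, 6465 and 4746 in CA3 controls, and of 4255 in the CA1 lesion array, against 5947, 7428 and 4947 in CA1 controls. It again lay below all controls in both fields, and its log2 difference was -0.77 ± 0.31 (SE) in CA3 and -0.50 ± 0.31 in CA1. The mean effect was -0.64 ± 0.22 (SE, limma adjusted p = 0.771), and -0.76 ± 0.21 without both control 3 arrays (limma adjusted p = 0.138). The dim Gabrb2 probe set (1369818_at) was not below its controls in either field, with 884 in the CA3 lesion array, against 115, 647 and 157 in CA3 controls, and 89.0 in the CA1 lesion array, against 22.3, 196 and 72.3 in CA1 controls. With the mean of both Gabrb2 probe sets the mean lesion effect turned to 0.21.

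Gabbr2 had an intensity of 21205 in the CA3 lesion array, against 30132, 29498 and 25736 in CA3 controls, and of 11113 in the CA1 lesion array, against 18951, 20968 and 12584 in CA1 controls. Control 3 was the control nearest to the lesion array in both fields. The mean effect was -0.52 ± 0.20 (SE, limma adjusted p = 0.771), with -0.42 ± 0.29 in CA3 and -0.62 ± 0.29 in CA1. Without both control 3 arrays the mean effect was -0.67 ± 0.15 (SE, limma adjusted p = 0.0754). The dim Gabbr2 probe set, which was not tested, was also below all controls in both fields, at 43.6 in the CA3 lesion array and 46.5 in the CA1 lesion array. It lay at percentile 26.7, and its controls ran from 105 to 491 in CA3 and from 81.2 to 1108.5 in CA1. With no filter its lesion effect was -1.83 ± 1.53 (SE) in CA3 and -2.60 ± 1.53 in CA1.

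Gabra2 had an intensity of 1974 in the CA3 lesion array, below the CA3 controls at 3156 to 4681, and of 1662 in the CA1 lesion array, within the CA1 controls at 1513 to 2446. Gabra2 thus differed by -0.95 ± 0.38 (SE, limma adjusted p = 0.937) in CA3 and -0.13 ± 0.38 (limma adjusted p = 0.999) in CA1, where the sign turned to 0.085 without CA1 control 1. The difference between these effects, -0.83 ± 0.54 (SE, limma adjusted p = 1.00), did not pass. Its 95% interval ran from -2.02 to 0.37.

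Gabra5 was the tested member whose mean lesion effect was above 0. It had an intensity of 61962 in the CA3 lesion array, against 52555, 57328 and 44242 in CA3 controls, and of 38744 in the CA1 lesion array, against 41842, 28368 and 28723 in CA1 controls. Its log2 lesion effect was 0.28 ± 0.27 (SE) in CA3 and 0.26 ± 0.27 in CA1, and 0.27 ± 0.19 in the mean (limma adjusted p = 0.812). The CA1 effect was 0.44 without CA1 control 1 and 0.16 without CA1 control 2, and the CA3 effect was 0.17 without CA3 control 3. Both Gabbr1 probe sets overlapped with the controls in both fields, with mean effects of -0.21 ± 0.21 (SE) and -0.069 ± 0.22. The brighter one had 29456 in the CA3 lesion array and 34908 in the CA1 lesion array, and the other had 19077 and 18637. Without CA1 control 1 the smaller effect turned to 0.057.

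Gabra4 had an intensity of 131 in the CA3 lesion array, against 73.1, 205 and 64.9 in CA3 controls, and of 41.5 in the CA1 lesion array, against 541, 282 and 495 in CA1 controls. The CA1 lesion array was below all CA1 controls and the CA3 lesion array lay within its controls. The dim Gabbr1 probe set 1369371_a_at was likewise low in the CA1 lesion array, with 32.5 in the CA3 lesion array and 28.7 in the CA1 lesion array, against 20.8 to 45.9 in CA3 controls and 274 to 702 in CA1 controls. With no filter the CA1 effect was -2.93 ± 1.27 (SE, limma adjusted p = 0.989) for Gabra4 and -3.21 ± 1.16 (limma adjusted p = 0.989) for 1369371_a_at. The tests of the difference between the fields gave 3.27 ± 1.80 and 3.31 ± 1.64 (limma adjusted p = 1.00 for each), and 0 of the 7 tested member probe sets passed that test, as did 0% of all.

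By field, 0 of 7 member probe sets passed in CA3 and 0 of 7 in CA1, as did 0% of all probe sets in each. In CA3, 3 of 7 had an unadjusted p under 0.05 (Gabra2, Gabrb1 and Gabrb2), against 4.68% of all probe sets, and in CA1 it was 0 of 7, against 3.63%. The CA3 lesion array was below all CA3 controls for 4 of 7 (24.8% of all) and above them for 1 of 7 (29.7% of all), and the CA1 lesion array was below all CA1 controls for 3 of 7 (24.8% of all). The limma adjusted p-values were 0.937 to 0.969 in CA3 and 0.999 throughout in CA1.

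**Figure D2:**
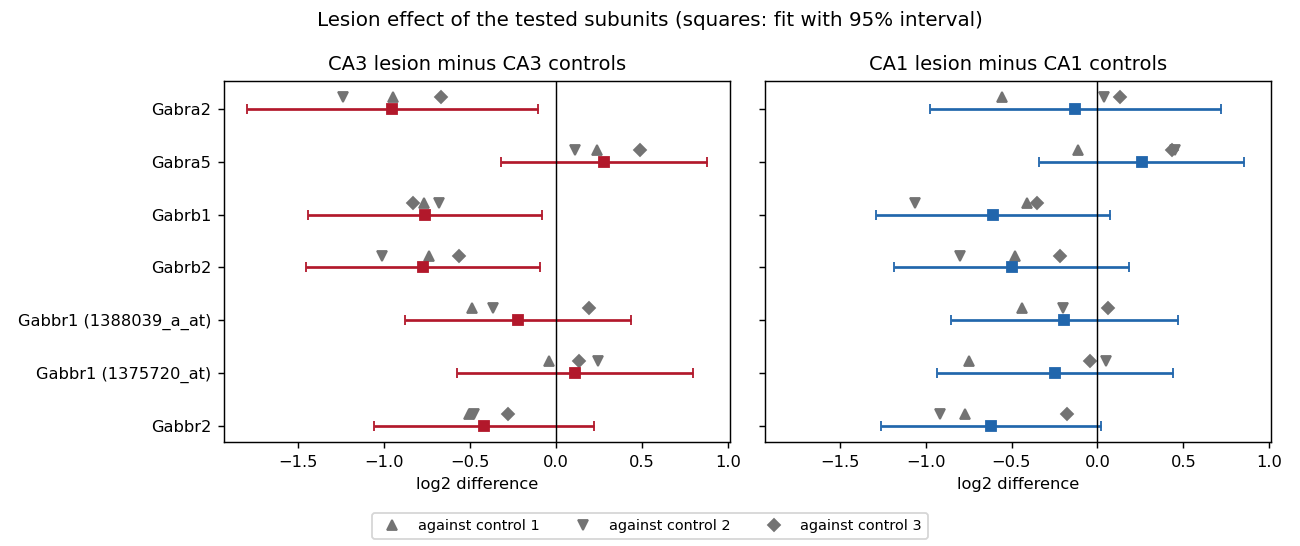
Log2 difference between the lesion array and the controls of the same field (x axis) for each tested member probe set (y axis), CA3 on the left and CA1 on the right. Squares with bars are the limma estimates with unadjusted 95% intervals and grey symbols the difference from each single control; Gabrb1, Gabrb2 and Gabbr2 lie left of 0 against all controls in both fields, and Gabra5 lies right of 0 except against CA1 control 1.

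Marker lists of several cell types lay to one side in the lesion arrays. All 12 pan-neuronal markers were lower in the mean lesion effect, with a median of -0.30, and all 10 tested microglia markers and all 8 tested myelin markers were higher, with medians of 2.60 and 1.70, while 0 of each list passed. The summed pan-neuronal intensity was 399260 in the CA3 lesion array, against 409640 to 564560 in CA3 controls, and 285180 in the CA1 lesion array, against 283170 to 400350 in CA1 controls. The summed myelin intensity was 682560 in the CA3 lesion array, against 80802 to 503340 in CA3 controls, and 620220 in the CA1 lesion array, against 62383 to 668140 in CA1 controls, and control 3 was the highest control in each field. All 5 glutamatergic markers were lower (median -0.47), as were 6 of 8 interneuron markers (median -0.35), and 8 of 9 astrocyte markers were higher (median 0.24). The part of these lists, and of the Gapdh and Actb ratios, in the subunit values was not tested.

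Over the 4 groups, the order of mean log2 levels for Gabra2 was CA3 control, CA3 lesion, CA1 control and CA1 lesion, and the last 3 did not separate beyond the CA1 control SD of 0.37. For Gabra5 the order was CA3 lesion, CA3 control, CA1 lesion and CA1 control, and for Gabbr2 it was CA3 control, CA3 lesion, CA1 control and CA1 lesion. For Gabrb1 and Gabrb2 it was CA1 control, CA3 control, CA1 lesion and CA3 lesion, in which the fields' controls did not separate for Gabrb2. For the brighter Gabbr1 probe set it was CA1 control, CA1 lesion, CA3 control and CA3 lesion, with all neighbours within the CA3 control SD of 0.36. The lone lesion arrays differed between CA3 and CA1 by 0.93 for Gabbr2, 0.68 for Gabra5, 0.25 for Gabra2, -0.41 for Gabrb2 and -0.55 for Gabrb1, values with no replicate.

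**Figure D3:**
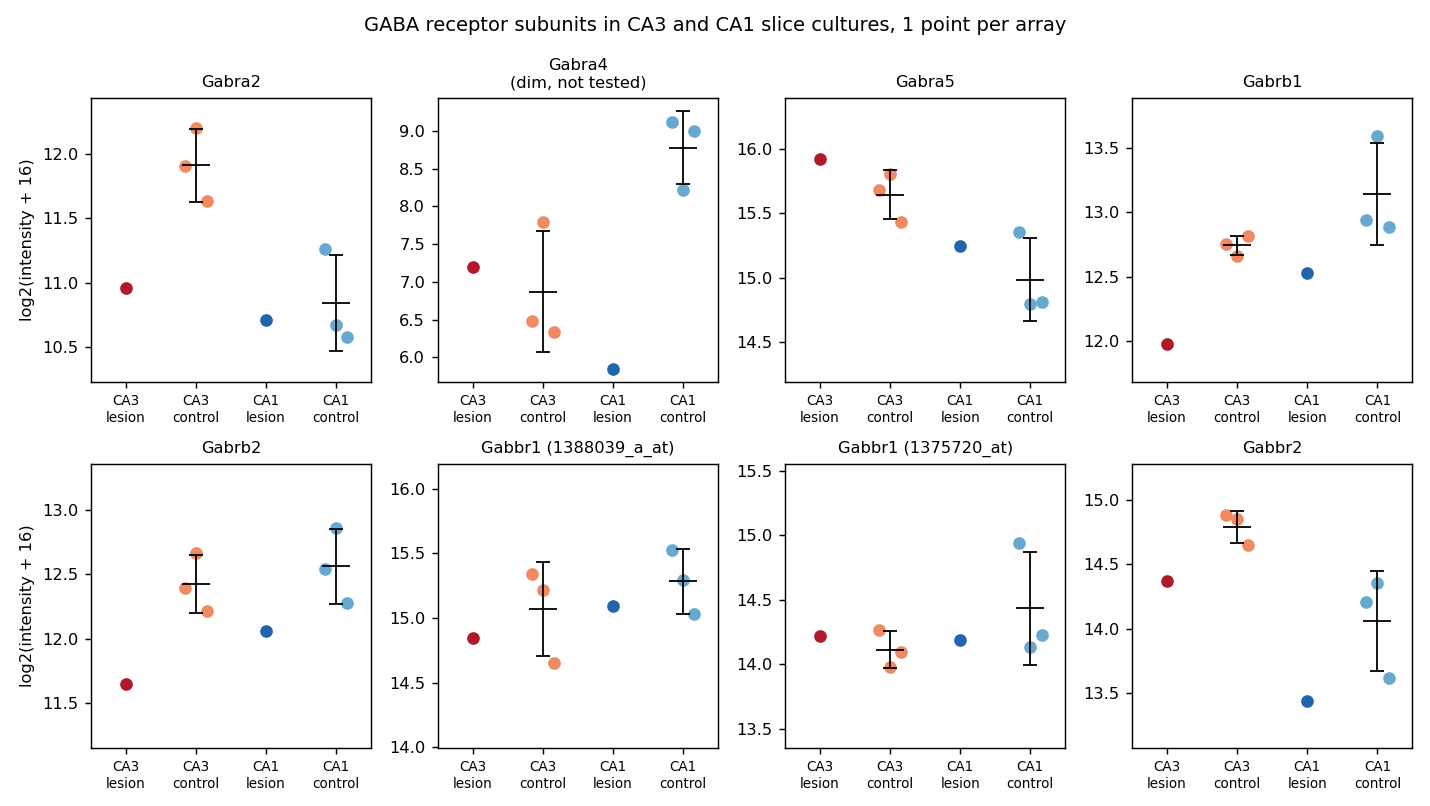
Log2(intensity + 16) on the y axis for the brightest probe set of each member and the other tested Gabbr1 probe set, with 1 point per array and the 4 groups on the x axis. Horizontal marks and bars are the mean and SD of the 3 controls, lesion groups are 1 array each, and each panel has its own y range; the CA3 controls sit above the CA1 controls for Gabra2, Gabra5 and Gabbr2, and both lesion arrays sit below their controls for Gabrb1, Gabrb2 and Gabbr2.

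Profiles were also compared after each probe set was centred on its own mean over the 8 arrays, with the root mean square (RMS) difference as the measure. Among the tested members, Gabrb1 and Gabrb2 were closest, with an RMS difference of 0.21 log2 units, followed by Gabrb2 and Gabbr1 at 0.27 and Gabra2 and Gabbr2 at 0.32. The least alike were Gabra5 and Gabrb1, at 0.76. These values have no test, and the arrays they share include the field and lesion groups.

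Of 6778 other genes, those most like Gabra2 were Lgi1, Synpr and Vsnl1, at RMS differences of 0.15 to 0.17, where the median gene was at 0.62. Lgi1 encodes a secreted neuronal protein, Synpr a synaptic vesicle membrane protein and Vsnl1 a neuronal calcium sensor. Those most like Gabbr2 were the neuronal RNA-binding protein gene Elavl2, Napb and the kinase gene Camk1g, at 0.12 to 0.15, where the median gene was at 0.56. Those most like Gabra5 were Edrf1, Qsox2 and Pdk3, at 0.11 to 0.15 (median gene 0.47).

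For Gabrb1 they were Jakmip1, Fem1c and Usp37, at 0.18 to 0.19 (median gene 0.48), and for Gabrb2 Phax, Lsm12 and Ccny, at 0.11 to 0.12 (median gene 0.42). For Gabbr1 they were Slc25a14, Pcsk1n and Dlg3, at 0.065 to 0.074 (median gene 0.35), and a probe set that varies little is near many genes by this measure. For Gabra4, with its dim probe set, they were Sorcs2, Tbc1d16 and Ndufaf7, at 0.82 to 0.84 (median gene 1.18).

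Of 11 measured GABA receptor subunit genes outside the members, 3 were bright enough to test, Gabrg1, Gabrd and Gabrr3, of which 0 passed in any of the 5 contrasts. Gabrg1 differed by 0.66 ± 0.54 (SE) between CA3 and CA1 controls and Gabrd, the delta subunit of receptors outside synapses, by -0.47 ± 0.39. With 1 control array left out these ran from 0.38 to 1.16 and from -0.73 to -0.083. In the mean lesion effect all 3 were above 0, with a median of 0.75. Another tested Gabrd probe set (1369048_at) had 785 in the CA3 lesion array, against 992, 836 and 671 in CA3 controls, and 2437 in the CA1 lesion array, against 1361, 1335 and 2069 in CA1 controls, so that all CA3 controls were below all CA1 controls. Gabra3, Gabra6, Gabrg3, Gabre, Gabrp, Gabrq, Gabrr1 and Gabrr2 lay under the filter.

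The genes around the receptors came in 4 lists, of which 0 genes passed in any of the 5 contrasts in limma. Of 5 tested genes for GABA synthesis, vesicle loading, uptake and breakdown, 2 were higher and 3 lower in CA3 controls, with a median of -0.035. Gad1, which makes GABA, differed by -0.035 ± 0.17 (SE) between the fields and by -0.38 ± 0.17 in the mean lesion effect (limma adjusted p = 0.771), and Slc32a1, which loads it into vesicles, by -0.19 ± 0.26 and 0.042 ± 0.26. Slc6a13, a GABA transporter also found in meninges, differed by 1.97 ± 0.69 between CA3 and CA1 controls (limma adjusted p = 0.459). Its intensity was 1270, 852 and 1361.5 in CA3 controls, against 137, 962 and 156 in CA1 controls, so the groups overlapped. With 1 control array left out the Slc6a13 difference ran from 1.49 to 2.83. Of 6 fibroblast and meningeal markers 5 were higher in CA3 controls and 1 passed, Ptgds. Ptgds had 16893 to 19268 in CA3 controls, against 107 to 619 in CA1 controls. The other 5 markers summed to 9019.5 to 15385 in CA3 controls, against 6498 to 10353 in CA1 controls, and overlapped. That overlap of the sums rested on Dcn, which is also on the CA1 pyramidal list. Dcn ran the other way, at 211 to 641 in CA3 controls, against 925 to 2730 in CA1 controls. Taken singly, Col1a1, Col1a2, Col3a1 and Lum each overlapped between the fields. The part of the fibroblast and meningeal markers in the Slc6a13 value was not tested.

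Of 15 clustering and trafficking genes, 8 were higher and 7 lower in CA3 controls (median 0.0086), and the same counts held in the mean lesion effect (median 0.010). Gphn, which encodes the scaffold gephyrin, differed by 0.081 ± 0.16 (SE) between the fields and by 0.010 ± 0.16 in the mean lesion effect. The smallest p in the mean lesion effect belonged to Shisa7, an auxiliary protein of GABA-A receptors, at -1.18 ± 0.41 (limma adjusted p = 0.771). That value came from CA3, where Shisa7 was at -2.29 ± 0.58 (limma adjusted p = 0.558), while in CA1 it was at -0.076 ± 0.58. The trafficking gene Trak2 stood at -0.50 ± 0.20 in the mean (limma adjusted p = 0.771), with -0.18 ± 0.28 in CA3 and -0.82 ± 0.28 in CA1. Its other tested probe set (1370176_at) had -1.14 ± 0.55 in CA3 and -0.50 ± 0.55 in CA1. Between the fields the smallest p belonged to Ubqln1, at 0.45 ± 0.15 (limma adjusted p = 0.382), whose other tested probe set (1387041_at) was at 0.054 ± 0.21.

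Of 10 GABA-B auxiliary and effector genes, 9 were higher in CA3 controls, with a median of 0.41 beside -0.041 over all probe sets and 0 passed. Each gene counts by its brightest probe set. For Cacna1a that probe set was at 0.70 ± 0.41 (SE), while its other tested one (1398459_at) was at -1.68 ± 0.78. Kcnj3 and Kcnj6, subunits of the potassium channels that GABA-B receptors open, differed by 1.02 ± 0.64 (SE) and 0.44 ± 0.21, the regulator gene Rgs7 by 0.39 ± 0.15 and the G protein gene Gnai1 by 0.92 ± 0.40, with limma adjusted p-values of 0.542 to 0.710. Without CA1 control 1 Kcnj3 was at 0.39, and without CA1 control 2 Gnai1 was at 0.48. In the mean lesion effect 4 were higher and 6 lower (median -0.19), and Cacna1a, a presynaptic calcium channel that GABA-B receptors inhibit, was at -1.27 ± 0.41 (limma adjusted p = 0.771). Its other tested probe set (1398459_at) had the opposite sign, at 0.81 ± 0.78 (limma adjusted p = 0.862). For Kcnj6 the brightest probe set was at -0.14 ± 0.21 in the mean lesion effect, and its other tested probe sets at -1.21 ± 0.46 and -1.29 ± 0.48 (limma adjusted p = 0.771 for both).

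The chloride transporters set the direction of the GABA-A current. Slc12a5, the neuronal chloride exporter, differed by -0.25 ± 0.24 (SE) between the fields (-0.040 without CA3 control 3) and by -0.20 ± 0.24 in the mean lesion effect. Slc12a2, a chloride importer made by neurons and glia, had an intensity of 46515 in the CA3 lesion array, against 10472, 21270 and 35606 in CA3 controls, and of 39208 in the CA1 lesion array, against 6685, 18785 and 39568 in CA1 controls. Its mean lesion effect was 1.21 ± 0.58 (SE, limma adjusted p = 0.779), and control 3 was the control nearest to the lesion array in both fields, as for the microglia list.

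**Figure D4:**
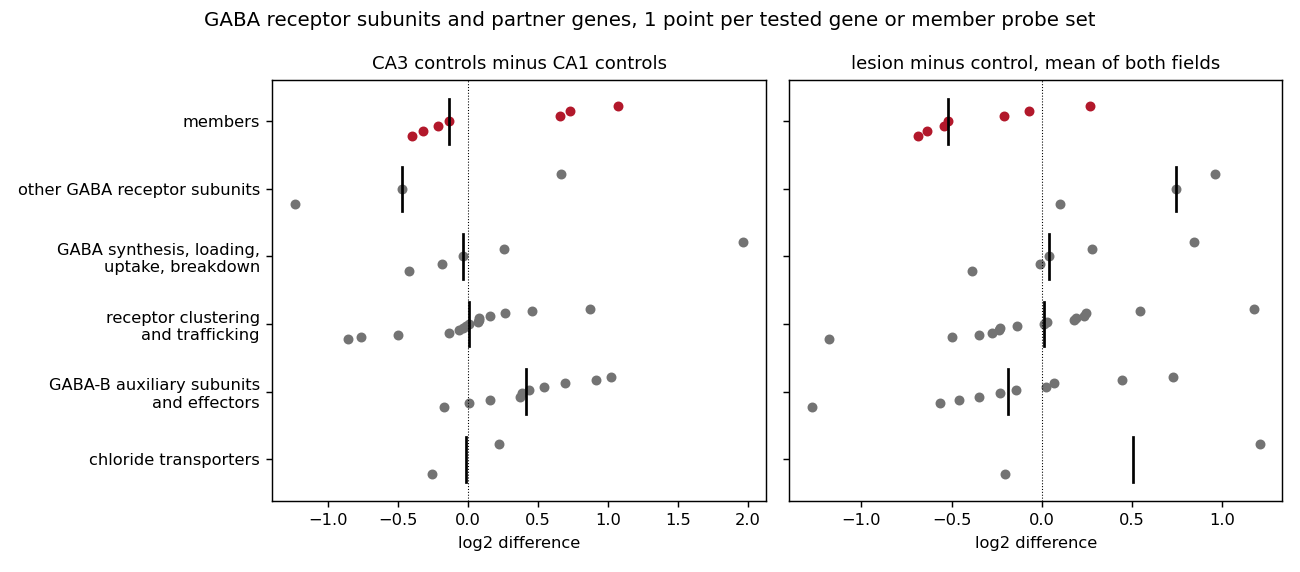
Log2 differences (x axis) of the 7 tested member probe sets and of the tested genes of 5 partner lists (y axis), for CA3 controls minus CA1 controls on the left and for the mean lesion effect on the right. Each point is a probe set or gene and the vertical bar is the median of its list. Partner genes enter by their brightest probe set alone, whereas Gabbr1 enters the members with both its tested probe sets. The member probe sets have a median of -0.14 on the left and -0.52 on the right, and GABA-B auxiliary and effector genes a median of 0.41 on the left.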

How the data were processed

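Linear signal intensities, 1 per probe set and array, were used as deposited by the authors, and their 2% trimmed means lay between 2500.9 and 2501. Software and probe summary: not given in the sources used here. After 57 control probe sets were removed, log2(intensity + 16) was computed and limma 3.58.1 (R 4.3.3) estimated a mean for each group from the 8 arrays together, with an intensity trend in the variances and 4 residual degrees of freedom. Tested were the 18625 probe sets with a mean at or above the 40th percentile, in 5 contrasts, with Benjamini-Hochberg adjustment over all of them and a threshold of 0.05. The fit was tested on simulated data. An array has no read depth, so the number of arrays sets the precision. Platform annotation gave 20826 probe sets 1 symbol, 436 several and 9780 none, and all 7 members matched RefSeq by gene identifier. Genes of the lists were named where they passed or were among the 4 smallest p-values of a list and contrast, other receptor subunits in any case, and the 3 genes nearest to each member by RMS difference. The brightest probe set stands for a list gene. Members and lists were chosen with earlier results of these data known. Alternatives covered scaling, pseudocount, filter, variance trend, probe set choice, replicate number and single arrays.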

Additional observations from a re-analysis of the deposited data

How the results depend on the processing

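With limma, 0 tested member probe sets passed in any contrast under quantile normalisation, pseudocounts of 1 or 64, no filter, a filter at the 60th percentile, variances without a trend, removal of _x_at and _s_at probe sets, control arrays alone, gene averages over all probe sets, any 1 array left out, or both control 3 arrays left out. With the replicate number as a block, 3 passed for CA3 against CA1 controls, beside 358 of 18625 probe sets, namely Gabra2 (1.07, limma adjusted p = 0.0487), Gabra5 (0.66, 0.0417) and Gabbr2 (0.73, 0.0214), and 0 in the lesion contrasts. In the mean lesion effect the block gave calls for 697 of 18625 probe sets. Both lesion arrays carry number 1, so this estimate sets them against control 1 of each field alone. Control 1 had the lowest summed microglia and myelin markers among the controls of its field. Called as higher were 9 of 10 microglia markers, 8 of 8 myelin markers, 3 of 9 astrocyte markers (Gja1, Fabp7 and S100b), Ptgds, Slc12a2 and Plcl1. Called as lower were Rbfox3, Gap43, Neurod6, Npy, Grik4 and Pcp4. Deviations of same-numbered controls correlated at 0.155, 0.0601 and 0.306 across probe sets, and those of unlike numbers at -0.204 to 0.0556. Each control thus correlated best with its own number, but for CA1 control 2 the margin was small. It correlated at 0.0601 with CA3 control 2 and at 0.0556 with CA3 control 1. This is at most a hint of pairing, from the data and not from the design. The labels do not say what the numbers share, so the main fit does not use them, and whether they pair the samples cannot be settled here. A contrast that needs a lesion array has no value without it.

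Of 590 alternative values for 35 member differences, 568 kept their direction and side of the threshold, 3 passed with the block alone, and 19 had the opposite sign, none of them past the threshold. Gene averages, which include the dim probe sets, gave 0.66 for Gabrb2 and -0.056 for Gabbr2 between CA3 and CA1 controls. They gave Gabrb2 0.21 in the mean lesion effect, 0.55 in CA3 and 0.68 in the difference of lesion effects, and Gabbr1 0.059 in CA3 and 1.38 in that difference. The block gave -0.22 for Gabbr1 (1375720_at) in CA3, quantile normalisation 0.086 for the difference of lesion effects of Gabbr1 (1388039_a_at), and leaving out both control 3 arrays 0.0088 for that of Gabrb1. With 1 array left out, Gabrb2 ran from -0.28 to 0.014 between the fields (above 0 without CA1 control 2), and Gabbr1 (1375720_at) from -0.14 to 0.057 in the mean lesion effect and from -0.40 to 0.0048 in CA1 (above 0 without CA1 control 1). Gabra2 ran from -0.26 to 0.085 in CA1 (above 0 without CA1 control 1). The difference of lesion effects ran from -0.16 to 0.12 for Gabra5 (below 0 without CA1 control 1 or CA3 control 3) and from -0.24 to 0.10 for Gabbr1 (1388039_a_at, above 0 when control 3 of CA1 or control 1 or 2 of CA3 was removed).

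Over all probe sets, the 98 calls for CA3 against CA1 controls became 0 without a variance trend, 358 with the block, 40 with gene averages, and, with 1 array removed, 47 (control 1 of CA1), 27 (control 2 of CA1), 29 (control 1 of CA3) or 24 (control 2 of CA3). The mean lesion effect, at 0 calls, had 697 with the block, 182 without both control 3 arrays and 1 without CA3 control 3. The CA1 effect, at 0 calls, had 258 with the block and 3 without both control 3 arrays. The CA3 effect, at 0 calls, had 310 with the block, 6 without both control 3 arrays and 5 each with quantile normalisation and a pseudocount of 1. The causes were not tested. Gabra4 and the other dim member probe sets lay at percentiles 10.3 to 37.0 of all probe sets, which limits what can be said of them.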
